A study of Mus musculus with 9 samples.

Results

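*Trp53*, which encodes the transcription factor p53, was followed together with its targets and with cell cycle inhibitor genes linked to senescence in 9 cultures of primary mouse articular chondrocytes, the cells that make cartilage matrix. The 10 genes, *Trp53*, *Mdm2*, *Cdkn1a*, *Cdkn1b*, *Cdkn2a*, *Cdkn2b*, *Gadd45a*, *Gadd45b*, *Gadd45g* and *Ccng1*, were picked by name from the 55471 genes of the deposited tables, and all 10 were among the 15362 genes with enough counts to be tested. Chondrocytes were taken from the knee joint surfaces of wild-type (WT) mice at postnatal day 5. The sample annotations give 3 days of growth and then infection with adenovirus (400 MOI, 2 h). The study's methods give other values for the growth time and the MOI. The 3 cultures labelled Control received Ad-Control, 3 cultures received Ad-OSCAR, which makes the cells express the collagen receptor OSCAR, and 3 cultures received Ad-OSCAR and, after 36 h, 5-ASA (5-aminosalicylic acid, an anti-inflammatory drug) at 10 µM for 24 h. By the study's methods the plates of all groups were coated with COLpep, a collagen peptide that OSCAR binds. No source states that the cultures came from separate animals, so the p-values measure the spread between these cultures. The promoter that drives OSCAR in the virus is not given in the sources used here.

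p53 is held at a low level by MDM2, which marks it for destruction, and is mostly regulated as a protein rather than through its mRNA. When it is stabilised it switches on *Cdkn1a*, whose product p21 blocks cyclin-dependent kinases (CDKs), and *Mdm2* itself, which closes a feedback loop. Lasting arrest by p21 and by the INK4 inhibitors of the *Cdkn2a* and *Cdkn2b* genes is the core of cellular senescence, a state that is followed in cartilage for its link to ageing and osteoarthritis.

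The estimated counts summed to between 19733448 and 28192740 per culture. For *Oscar*, 3 to 4 counts were found with Ad-Control, 173445 to 187278 with Ad-OSCAR and 80766 to 94199 after 5-ASA. Chondrocyte markers (10 genes) summed to 15151 to 17100 TPM with Ad-Control, 1589 to 1733 TPM with Ad-OSCAR and 1687 to 1847 TPM with 5-ASA, and 9 of the 10 were lower with Ad-OSCAR. Fibroblast markers summed to 6036 to 6288, 5009 to 5169 and 5578 to 5782 TPM in the 3 groups, in the same order, and with Ad-OSCAR 4 of the 5 were lower and *Dcn* was higher. Macrophage and leukocyte markers summed to 3.12 to 4.98, 13.7 to 14 and 9.18 to 10.8 TPM, nearly all of it *Cd68* (means of 3.46, 13.5 and 9.76 TPM), with *Ptprc* and *Adgre1* at 3 counts or fewer in each culture. Endothelial, erythroid and muscle markers summed to less than 1 TPM in every culture, and osteoblast markers to 29.9 to 35.7, 5.65 to 7.5 and 10.9 to 12.3 TPM in the 3 groups. In such bulk samples, fewer cells of a type and less RNA per cell cannot be told apart. The part of these marker levels in the results that follow was not tested.

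Expression of *Cdkn1a*, *Mdm2* and *Ccng1* rose with Ad-OSCAR and fell with 5-ASA, while *Trp53* itself passed the test in neither comparison. *Gadd45a* rose in both, *Gadd45g* fell to 0.191 of its level with Ad-OSCAR, and *Cdkn2b* rose with 5-ASA. Against Ad-Control, 8 of the 10 genes changed with Ad-OSCAR, 5 up and 3 down (edgeR's quasi-likelihood test, Benjamini-Hochberg adjusted p below 0.05). So many genes changed in this comparison, 65.0% of all those tested (32.7% up and 32.2% down), that the count of 8 in 10 says little by itself. When the log2 fold change also had to exceed 1.5 in size, 2 of the 10 passed, *Cdkn1a* and *Gadd45g*, against 9.96% of all genes. With 5-ASA, set against Ad-OSCAR alone, 6 of the 10 genes changed, 3 up and 3 down, where 17.8% of all genes did (10.4% up and 7.38% down). A limit of 1.5-fold with an unadjusted p below 0.05 was passed by *Gadd45a* alone, against 4.15% of all genes. The untreated Ad-OSCAR cultures stand in both comparisons, so a chance deviation in them enters both with opposite signs. *Oscar* itself fell with 5-ASA, from 6354 to 7112 CPM (counts relative to the TMM-scaled library total) to 2946 to 3723 CPM (log2 fold change -0.97, standard error 0.06), and the part of this fall in the 5-ASA results was not tested. Values per culture do not overlap between Ad-Control and Ad-OSCAR for 8 of the 10 genes (69.0% of all genes), or between untreated and treated Ad-OSCAR cultures for 7 of the 10 (33.8% of all genes).

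**Figure D1:**
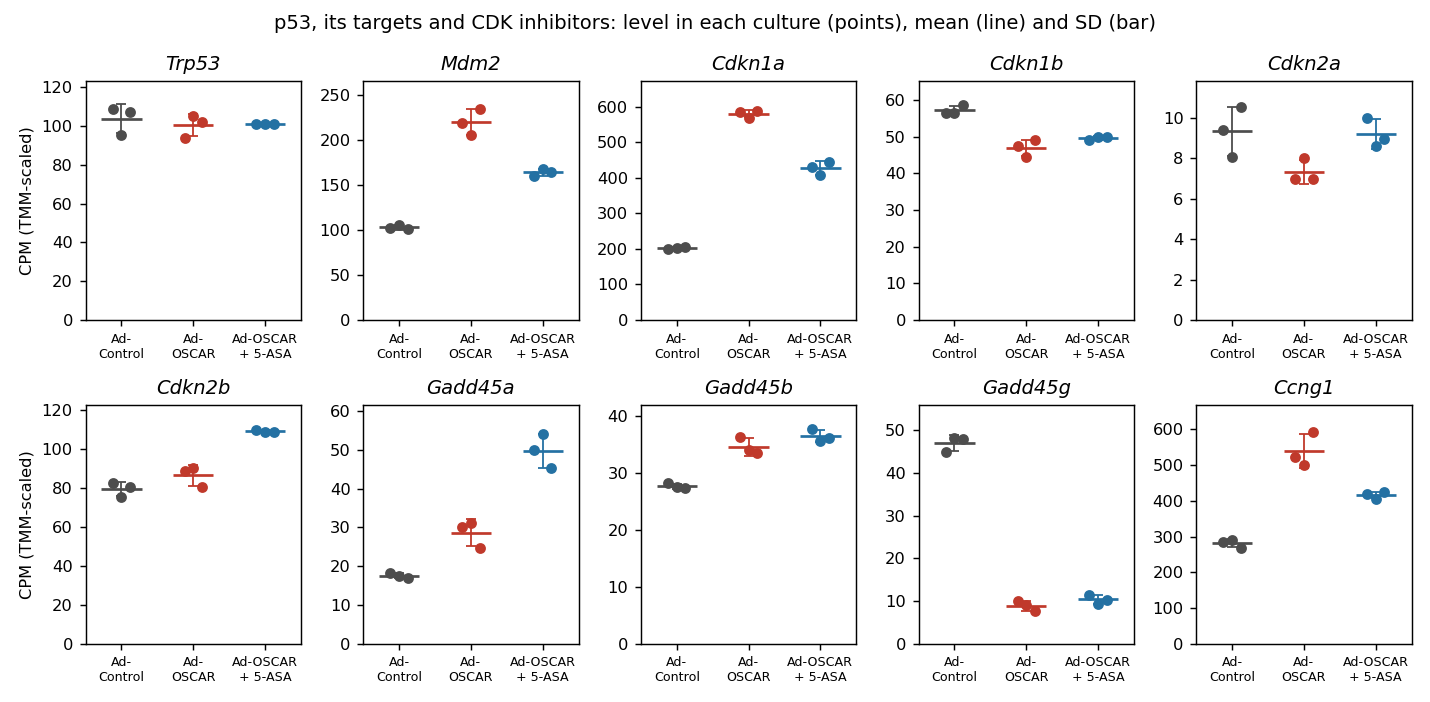
Level of each of the 10 genes (CPM, TMM-scaled, axes from 0) in the 3 cultures of each group, with points for cultures, lines for means and bars for SD. *Trp53* is level across the groups, *Cdkn1a*, *Mdm2* and *Ccng1* peak with Ad-OSCAR, *Gadd45a* climbs from 17 to 18.2 CPM with Ad-Control to 45.2 to 54.0 CPM with 5-ASA, and *Gadd45g* drops with Ad-OSCAR.

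On the scale of TPM, which is corrected for transcript length and so can be compared between genes, *Cdkn1a* was the highest of the 10 genes in each group, at 202 ± 2.79 with Ad-Control, 607 ± 23.4 with Ad-OSCAR, and 418 ± 28.2 TPM after 5-ASA (SD, n = 3 each). *Ccng1* came next in each group, at 140 ± 6.10, 272 ± 28 and 197 ± 7.45 TPM. With Ad-Control the order went on with *Cdkn2b* (109 ± 4.52), *Trp53* (107 ± 7.78), *Gadd45g* (89.7 ± 3.62), *Mdm2* (75.6 ± 3.38), *Gadd45b* (44.1 ± 1.29), *Cdkn1b* (31.4 ± 1.61), *Gadd45a* (29.3 ± 0.995) and *Cdkn2a* (22 ± 2.79 TPM). The neighbours *Cdkn2b* and *Trp53*, and *Cdkn1b* and *Gadd45a*, overlapped in that order and the others did not. With Ad-OSCAR, *Mdm2* followed *Ccng1* at 164 ± 10.6 TPM and *Gadd45g* last at 17.1 ± 2.16, where it overlapped *Cdkn2a* at 17.7 ± 1.12. With 5-ASA, *Gadd45a* stood at 80.1 ± 6.82 TPM, above *Gadd45b* at 56.0 ± 1.57, and only *Cdkn2a* and *Gadd45g* overlapped as neighbours.

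*Trp53* (ENSMUSG00000059552.13, chromosome 11 of GRCm38, 69580359 to 69591873) was at 109, 95.4 and 107 CPM with Ad-Control, at 94.0, 105 and 102 CPM with Ad-OSCAR and at 101 CPM in each of the 5-ASA-treated cultures. The 3 groups overlap throughout. The log2 fold change was -0.05 with Ad-OSCAR (standard error 0.06) and 0.01 with 5-ASA (standard error 0.05), and edgeR gave Benjamini-Hochberg adjusted p of 0.477 and 0.909. On the TPM scale the second value is -0.09. These values are of the mRNA and say nothing of the p53 protein.

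*Mdm2* (ENSMUSG00000020184.15, chromosome 10, 117688875 to 117710758), which encodes the ubiquitin ligase that p53 induces and that degrades p53, was at 102, 106 and 101 CPM with Ad-Control. It stood at 219, 206 and 235 CPM with Ad-OSCAR and at 160, 168 and 165 CPM with 5-ASA. Each treated culture lies between the other groups, with no overlap. The rise with Ad-OSCAR was 2.13-fold (log2 fold change 1.09, standard error 0.05; edgeR, Benjamini-Hochberg adjusted p = 1.45e-12). After 5-ASA the level was 0.748 of the untreated one (log2 fold change -0.42, standard error 0.05; same test, adjusted p = 1.12e-05).

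*Cdkn1a* (ENSMUSG00000023067.14, chromosome 17, 29090976 to 29100727) encodes p21, the main CDK inhibitor that p53 induces. Its level was 199, 202 and 205 CPM with Ad-Control, 586, 568 and 587 CPM with Ad-OSCAR and 429, 408 and 445 CPM with 5-ASA. Cultures of a group lie close together, and no group overlaps another. *Cdkn1a* rose 2.88-fold with Ad-OSCAR (log2 fold change 1.52, standard error 0.04; edgeR, Benjamini-Hochberg adjusted p = 1.53e-15). With 5-ASA it fell to 0.736 of the untreated level (log2 fold change -0.44, standard error 0.04; adjusted p = 1.09e-06, same test). Over 17 alternative settings the 2 log2 fold changes stayed between 1.51 and 1.59 and between -0.54 and -0.41. The opposite strand of *Cdkn1a* carries a gene of unknown coding status, AC167363.2. How the counting treated strand is not given in the sources used here.

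*Ccng1* (ENSMUSG00000020326.7, chromosome 11, 40748552 to 40755311) encodes cyclin G1, a p53 target that recruits a phosphatase to MDM2. It was at 285, 290 and 269 CPM with Ad-Control, at 522, 501 and 592 CPM with Ad-OSCAR and at 418, 406 and 425 CPM with 5-ASA. As for *Mdm2*, all treated cultures lie below the untreated Ad-OSCAR cultures and above the Ad-Control cultures. The log2 fold change was 0.94 with Ad-OSCAR (standard error 0.06; edgeR, Benjamini-Hochberg adjusted p = 4.17e-11) and -0.37 after 5-ASA (standard error 0.05; same test, adjusted p = 9.69e-05).

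**Figure D2:**
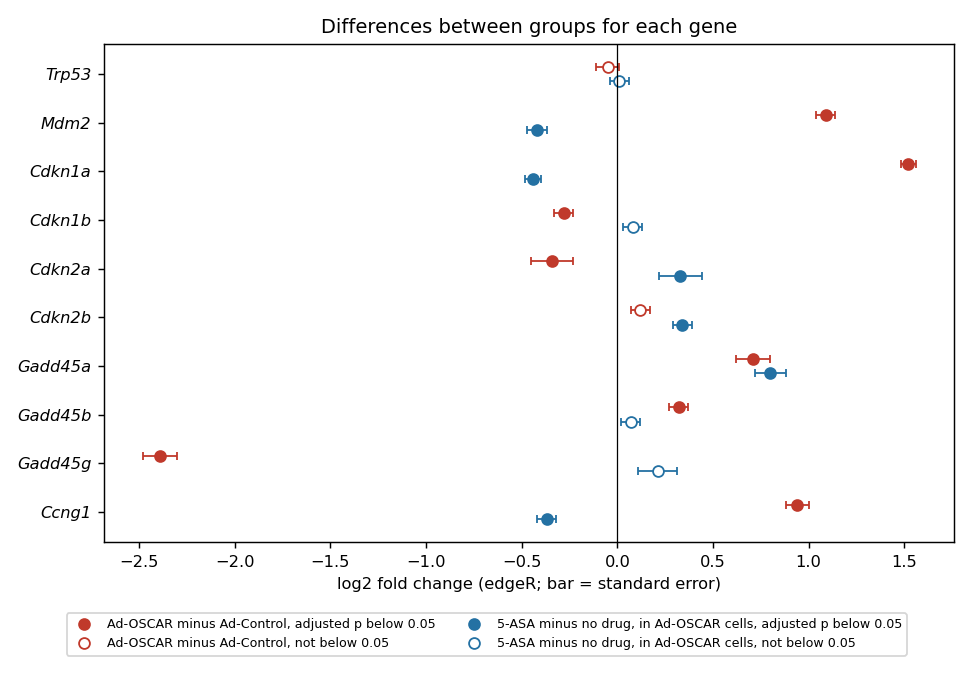
Log2 fold change (x axis, bars for the standard error) of each gene with Ad-OSCAR against Ad-Control in red and with 5-ASA in Ad-OSCAR cells in blue, with filled points for a Benjamini-Hochberg adjusted p below 0.05. *Mdm2*, *Cdkn1a* and *Ccng1* lie right of 0 in red and left of 0 in blue, *Gadd45a* lies right of 0 in both, and *Gadd45g* lies farthest left at -2.39.

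Start sites of the 10 genes were searched for the 10-base half-site consensus of p53, which reads the same on both strands and of which p53 binds a pair. The windows ran from 250 bases before to 50 bases after each RefSeq start (GRCm38.p6), all 10 genes had at least 1, and the 12 windows were read for exact matches. Of all 32851 windows, 8.36% held a half-site, and so did 5 of the 12 windows here, those of *Trp53*, *Mdm2*, *Gadd45a*, *Ccng1* and the upstream start of *Cdkn1a*. A pair of half-sites with a spacer of 0 to 13 bases was found in 24 windows in all (0.0731%), and 1 of them was that of *Cdkn1a*, where the pair runs from 73 to 42 bases before the start with a spacer of 12. The window of the downstream *Cdkn1a* start held no half-site. The 250 bases before these starts are shown to set *Trp53*, whose level did not pass the test, beside the genes that changed, with half-sites in capitals. They lie at chr11:69580109-69580358 (plus strand, *Trp53*), chr10:117710759-117711008 (minus strand, *Mdm2*), chr17:29090729-29090978 (plus strand, *Cdkn1a*), chr11:40755287-40755536 (minus strand, *Ccng1*) and chr6:67037408-67037657 (minus strand, *Gadd45a*), each printed 5′ to 3′ on its gene's strand.
Trp53: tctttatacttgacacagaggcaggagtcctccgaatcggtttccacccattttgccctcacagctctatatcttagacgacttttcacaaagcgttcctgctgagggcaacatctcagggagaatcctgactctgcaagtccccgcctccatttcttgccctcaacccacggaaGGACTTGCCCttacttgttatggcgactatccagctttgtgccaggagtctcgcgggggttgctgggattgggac
Mdm2: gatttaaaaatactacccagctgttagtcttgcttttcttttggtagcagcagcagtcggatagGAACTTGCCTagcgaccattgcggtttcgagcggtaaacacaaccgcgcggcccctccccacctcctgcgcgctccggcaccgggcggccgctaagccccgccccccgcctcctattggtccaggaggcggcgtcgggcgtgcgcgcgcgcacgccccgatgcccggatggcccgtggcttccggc
Cdkn1a: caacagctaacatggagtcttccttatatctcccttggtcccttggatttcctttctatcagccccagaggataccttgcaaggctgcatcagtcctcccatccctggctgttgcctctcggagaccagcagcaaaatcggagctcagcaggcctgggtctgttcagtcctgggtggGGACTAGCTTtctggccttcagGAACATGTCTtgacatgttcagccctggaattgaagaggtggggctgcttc
Ccng1: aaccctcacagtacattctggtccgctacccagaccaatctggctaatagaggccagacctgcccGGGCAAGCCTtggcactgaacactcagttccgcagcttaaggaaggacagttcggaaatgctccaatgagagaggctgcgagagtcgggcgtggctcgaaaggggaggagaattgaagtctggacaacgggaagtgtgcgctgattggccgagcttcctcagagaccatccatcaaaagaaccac
Gadd45a: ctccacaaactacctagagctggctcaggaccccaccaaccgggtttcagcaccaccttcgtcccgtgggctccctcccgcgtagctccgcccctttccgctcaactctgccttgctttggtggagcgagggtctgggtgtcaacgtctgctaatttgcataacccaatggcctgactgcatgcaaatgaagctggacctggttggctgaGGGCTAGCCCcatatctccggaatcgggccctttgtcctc
A match is a description of these letters, and binding was not measured. Sites with a mismatch were not searched. In the *Cdkn1a* sequence the letters tgacatgttc directly follow the half-site nearest the start. They depart from the consensus only in their first base, so they are not in capitals and were not counted in a pair. Other known p53 sites of these genes, such as those in the first introns of *Mdm2* and *Ccng1*, lie outside these windows and were not searched.

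Other targets of p53 changed mostly in the direction of *Cdkn1a*. Of 32 such genes, which act in apoptosis, DNA repair, metabolism and arrest, 30 changed with Ad-OSCAR, 27 up and 3 down (edgeR, Benjamini-Hochberg). Of all genes tested 65.0% changed, 32.7% up and 32.2% down. The median log2 fold change of the 32 was 0.72, against 0.02 over all genes tested. Among targets with a mean level of 1 CPM or more, the largest rises were those of *Perp*, *Pidd1* and *Psrc1*. *Perp*, a membrane protein of desmosomes and apoptosis, went from 8.03 ± 0.440 to 35.9 ± 2.45 CPM (SD, n = 3 each, as for the values that follow; log2 fold change 2.17, standard error 0.08). *Pidd1*, a death-domain protein that activates caspase-2, went from 6.62 ± 0.427 to 27.7 ± 1.25 CPM. *Psrc1*, a microtubule-binding protein, went from 20.3 ± 0.893 to 73.0 ± 4.30 CPM. The 3 targets that fell were *Steap3*, a metalloreductase (log2 fold change -1.66), *Sesn1*, a stress protein that restrains mTORC1 (-0.86), and *Fdxr*, ferredoxin reductase (-0.55). *Sfn* and *Plk2*, named here after their values were seen, did not pass, at 0.19 (standard error 0.31) and -0.08 (standard error 0.04).

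With 5-ASA, 21 of the 32 targets changed, 19 down and 2 up, where 7.38% of all genes fell and 10.4% rose, and the median was -0.27 (edgeR, Benjamini-Hochberg). *Pidd1* fell to 16.1 ± 1.08 CPM (log2 fold change -0.78, standard error 0.07), *Perp* to 22.6 ± 1.59 CPM (-0.67, standard error 0.07) and *Eda2r*, a death receptor of the TNF receptor family, from 45.0 ± 5.71 to 32 ± 1.91 CPM (-0.49, standard error 0.08). The 2 that rose were *Sesn1*, by 0.30 (adjusted p = 0.0482), and *Sesn2*, also a sestrin, by 0.28 (adjusted p = 0.00084). *Sesn1* lost its call in 8 of 17 alternatives: with DESeq2 (adjusted p = 0.0728), on the TPM scales (0.188 and 0.18), and without Ad-Control culture 3 (0.056), Ad-OSCAR culture 1 (0.0641) or 3 (0.214) or treated culture 1 (0.149) or 2 (0.137). *Sesn2* did not pass on the TPM scales (0.0509 and 0.0523), and both sestrin genes overlap another gene on the same strand. Of the targets, 24 had a start window in the RefSeq table, and 6 of these held a p53 half-site, against 9.55% of all genes with a window. A pair of half-sites with a spacer of 0 to 13 bases was found in 0 of the 24.

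**Figure D3:**
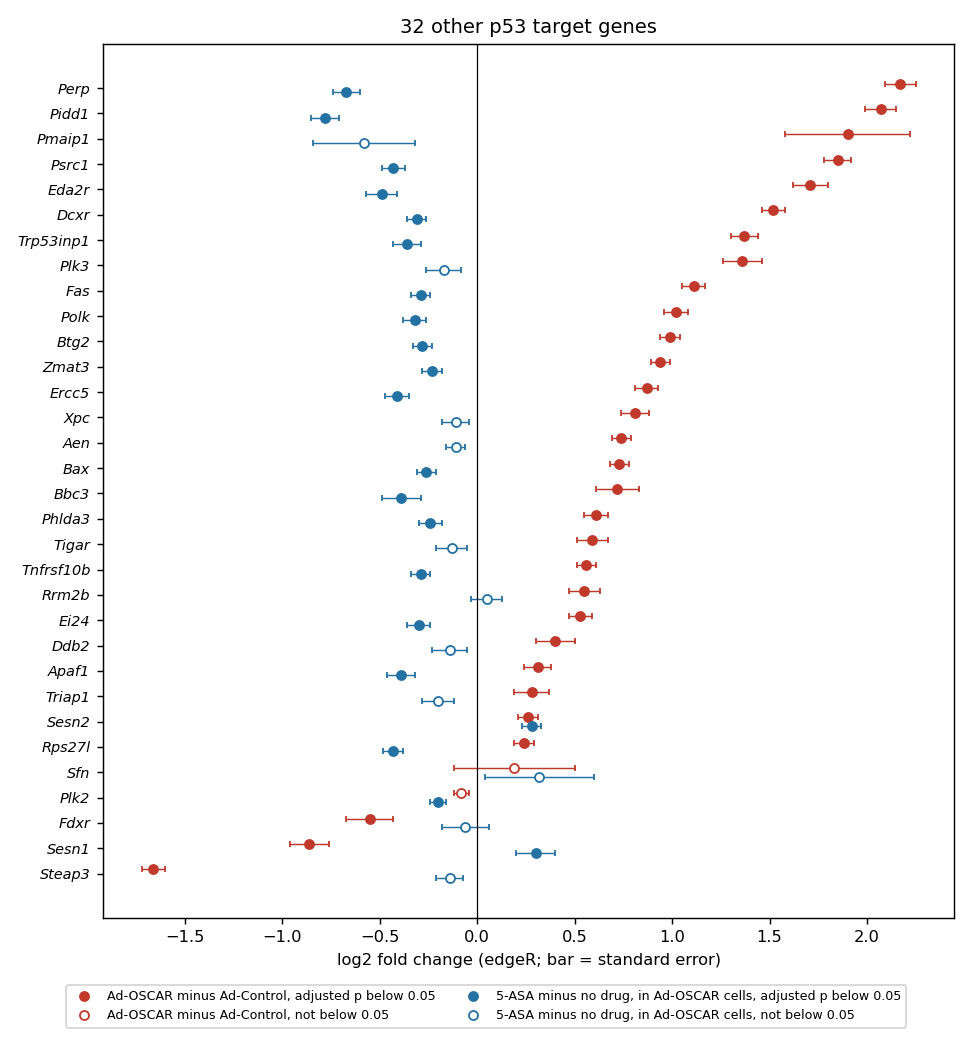
Log2 fold change (x axis, bars for the standard error) of the 32 other p53 targets with Ad-OSCAR in red and with 5-ASA in Ad-OSCAR cells in blue, ordered by the first, with filled points for a Benjamini-Hochberg adjusted p below 0.05. Red points lie mostly right of 0 and blue points mostly left of it, and *Steap3*, *Sesn1* and *Fdxr* are the filled red points left of 0.

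Genes that control p53 changed in both directions. Of 16 tested (*Trp73* had too few counts), 10 (62.5%, against 65.0% of all genes) changed with Ad-OSCAR, 3 up and 7 down, with a median log2 fold change of -0.10 (edgeR, Benjamini-Hochberg). *Trp53bp1*, a DNA damage adaptor that overlaps *Tubgcp4* on the other strand, rose by 0.43 and *Ppm1d*, a phosphatase that is a p53 target itself and dampens the response, by 0.37 on the log2 scale. *Chek1*, a checkpoint kinase of replicating cells, went from 6.66 ± 0.370 to 3.33 ± 0.538 CPM, and *Rpl11*, a ribosomal protein that can hold back MDM2, from 396 ± 6.11 to 210 ± 6.64 CPM. With 5-ASA 4 of the 16 changed (25%, against 17.8% of all genes), 3 up and 1 down, with a median of 0.00. *Mdm4*, the MDM2 relative that blocks p53, rose by 0.40 (standard error 0.06) and *Trp63*, a p53 relative, by 0.35 (standard error 0.07), while *Ppm1d* fell (log2 fold change -0.34, standard error 0.08). On the TPM scale *Trp63* did not pass (adjusted p = 0.147, limma-trend).

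The genes whose profile over the 9 cultures lay nearest to that of *Cdkn1a*, among 13267 genes with a mean of at least 1 CPM, were *Mgat5*, *Orai2* and *Slc27a1*. Their root mean square distances on centred log2 CPM were 0.0580, 0.0683 and 0.0689, and their log2 fold changes were 1.57, 1.59 and 1.52 with Ad-OSCAR and -0.40, -0.37 and -0.41 with 5-ASA. *Mdm2* and *Ccng1* lay at 0.206 and 0.270, and the other genes of the 10 at 0.494 or more.

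The other inhibitor of the same family, *Cdkn1b* (ENSMUSG00000003031.14, chromosome 6, 134920401 to 134925513), encodes p27, which holds cells in quiescence. Its level was 56.5, 56.5 and 58.6 CPM with Ad-Control, 47.4, 44.6 and 49.0 CPM with Ad-OSCAR and 49.2, 49.9 and 50.0 CPM with 5-ASA. Every Ad-Control culture lies above every other culture. The log2 fold change with Ad-OSCAR was -0.28 (standard error 0.05; edgeR, Benjamini-Hochberg adjusted p = 5.18e-05). With 5-ASA it was 0.08 (standard error 0.05; adjusted p = 0.28, same test), and on the TPM scale it was -0.12, so no direction is given. p27 is mainly controlled through its breakdown, for which SKP2 and CKS1 are needed. Of 8 such regulators and FOXO factors, 5 changed with Ad-OSCAR (62.5%, against 65.0% of all genes), among them *Cks1b*, from 34.3 ± 3.63 to 14.4 ± 0.367 CPM, *Skp2*, from 14.2 ± 0.415 to 8.68 ± 0.541 CPM, and *Foxo3*, which rose by 0.42 on the log2 scale. With 5-ASA 0 of the 8 passed in edgeR and in DESeq2, and 1 had an unadjusted p below 0.05. Of all genes, 17.8% passed in edgeR. *Cdkn1c*, which encodes p57 of the same family, fell from 122 ± 11.7 to 17.7 ± 1.40 CPM with Ad-OSCAR.

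*Cdkn2a* (ENSMUSG00000044303.6, chromosome 4, 89274471 to 89294653) was the gene of the 10 with the fewest counts, 191 to 261 per culture. It makes 2 proteins from alternative first exons, p16Ink4a, which blocks CDK4 and CDK6, and p19Arf, which blocks MDM2. Its level was 9.39, 8.05 and 10.5 CPM with Ad-Control, 6.99, 8.0 and 6.95 CPM with Ad-OSCAR and 10.0, 8.61 and 8.93 CPM with 5-ASA. The untreated Ad-OSCAR cultures are the lowest, by a small margin from the second Ad-Control culture. The log2 fold change was -0.34 with Ad-OSCAR (standard error 0.11; edgeR, Benjamini-Hochberg adjusted p = 0.0106) and 0.33 after 5-ASA (standard error 0.11; same test, adjusted p = 0.0373). The first was lost without Ad-Control culture 3 (-0.26, adjusted p = 0.0641). The second was lost in 8 of 17 alternatives: with DESeq2 (adjusted p = 0.079), with the replicate number as a block (0.0548), on the TPM scale (0.132 and 0.13), and without Ad-OSCAR culture 1 (0.139) or 3 (0.119) or treated culture 1 (0.171) or 3 (0.0585).

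The deposited mean transcript length of *Cdkn2a* gives the share of each transcript, since the annotation holds 2, of 895 and 852 bases. Cdkn2a-202 starts at the upstream first exon (chromosome 4, 89294334 to 89294653, minus strand), as p19Arf does, and Cdkn2a-201 at the downstream one (89281986 to 89282192), as p16Ink4a does. Cdkn2a-201 made up 16.2%, 17.9% and 13.5% of the transcripts with Ad-Control, 28.6%, 29.7% and 30.3% with Ad-OSCAR and 32.1%, 20.4% and 27.4% with 5-ASA. Each Ad-Control culture has a smaller share than any other culture, and the treated cultures spread around the untreated Ad-OSCAR ones. In TPM, Cdkn2a-201 was at 3.45 ± 0.133 with Ad-Control, at 5.22 ± 0.401 with Ad-OSCAR and at 5.65 ± 1.67 after 5-ASA, while Cdkn2a-202 was at 18.6 ± 2.85, 12.4 ± 0.757 and 15.3 ± 0.115 (SD, n = 3 each). With Ad-OSCAR the values of the transcript from the downstream exon all lay above those with Ad-Control, and the values of the transcript from the upstream exon all lay below. The exact two-sided permutation test gave p = 0.1 for each of these and for the share (adjusted p = 0.129 over 9 such tests), which is the smallest p that 3 cultures against 3 allow. For the share with 5-ASA the exact permutation test gave p = 0.6. Shares rest on RSEM's division of reads between the 2 transcripts, which differ in their first exon and elsewhere, and their counting error is not known from the files.

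**Figure D4:**
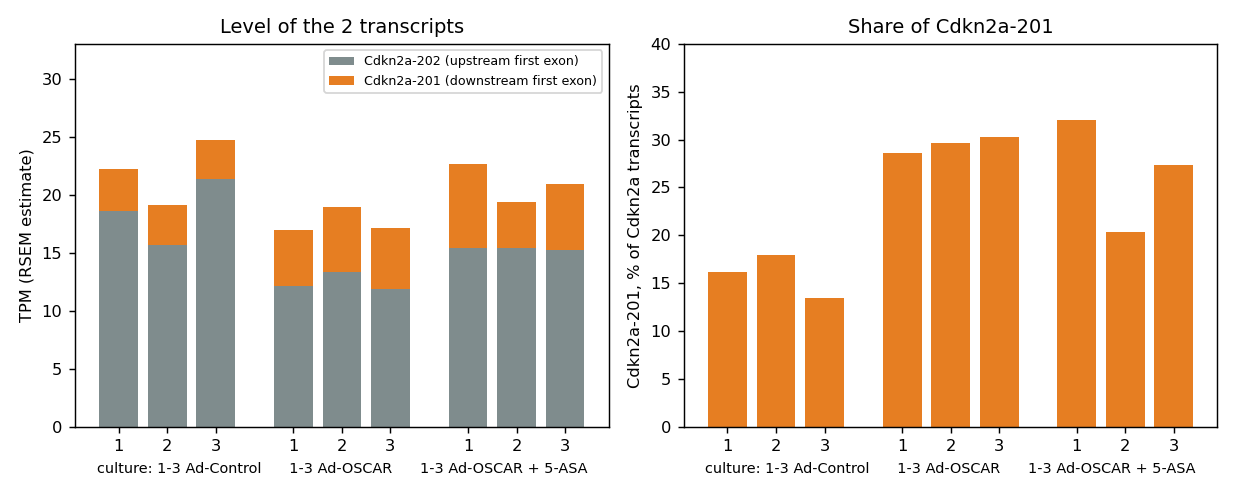
Estimated TPM of the 2 *Cdkn2a* transcripts, stacked (left), and the share of Cdkn2a-201 in percent (right), in each of the 3 cultures of each group. The Ad-Control bars of the share stand at 13.5% to 17.9% and the Ad-OSCAR bars at 28.6% to 30.3%.

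The 2 first exons have separate start regions, printed here for their contrast in base composition and with the GC box GGGCGG in capitals, a letter run found on either strand in 35.7% of all windows. The 250 bases before the start lie at chr4:89294620-89294869 for the upstream exon, with a pair of GC boxes, and at chr4:89282193-89282442 for the downstream exon, with none before the start and 1 at 24 to 29 bases after it (minus strand, RefSeq, GRCm38.p6).
Cdkn2a upstream: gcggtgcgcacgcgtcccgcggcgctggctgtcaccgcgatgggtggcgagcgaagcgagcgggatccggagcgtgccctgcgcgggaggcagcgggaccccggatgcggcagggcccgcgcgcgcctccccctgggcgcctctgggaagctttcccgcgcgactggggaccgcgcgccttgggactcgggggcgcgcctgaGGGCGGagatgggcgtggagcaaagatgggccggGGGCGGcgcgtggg
Cdkn2a downstream: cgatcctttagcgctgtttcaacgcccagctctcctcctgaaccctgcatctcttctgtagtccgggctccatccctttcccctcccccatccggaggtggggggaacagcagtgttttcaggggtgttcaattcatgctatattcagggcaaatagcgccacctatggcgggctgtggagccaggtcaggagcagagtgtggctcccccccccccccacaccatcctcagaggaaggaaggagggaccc
Neither window held a p53 half-site.

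*Cdkn2b* (ENSMUSG00000073802.5, chromosome 4, 89306299 to 89311039), the neighbouring gene, encodes p15, a CDK4 and CDK6 inhibitor known as a target of TGF-β signalling. It was at 82.5, 75.5 and 80.7 CPM with Ad-Control, at 88.7, 90.5 and 80.5 CPM with Ad-OSCAR and at 110, 109 and 109 CPM with 5-ASA. The treated cultures are the highest, and the other groups overlap. With Ad-OSCAR the log2 fold change was 0.12 (standard error 0.05) and edgeR gave a Benjamini-Hochberg adjusted p of 0.0501, which lay between 0.00753 (without Ad-OSCAR culture 3) and 0.23 over the alternatives and below 0.05 in 5 of 17. With 5-ASA it rose by 0.34 (standard error 0.05; adjusted p = 0.00014, same test), and the call held in all 17. Among 14 tested genes that regulate this locus, such as Polycomb proteins and T-box repressors, 9 (64.3%, against 65.0% of all genes) changed with Ad-OSCAR, 7 up and 2 down (median 0.20; edgeR, Benjamini-Hochberg). *Tbx3*, a repressor of the locus, rose from 6.49 ± 0.569 to 34.1 ± 1.83 CPM and *Cbx7*, a Polycomb protein, from 2.43 ± 0.111 to 5.4 ± 0.0847 CPM. *Id1*, an inhibitor of ETS and bHLH factors, fell from 31.8 ± 1.64 to 17.9 ± 2.69 CPM. *Ezh2*, the Polycomb methyltransferase, fell by 0.34 on the log2 scale, a call that was lost on the TPM scale (-0.08, adjusted p = 0.591, limma-trend). With 5-ASA 2 of the 14 changed (14.3%, against 17.8% of all genes), both down, *Tbx3* (log2 fold change -0.32, lost on log2(TPM + 0.1) with adjusted p = 0.0592, limma-trend) and *Ets2*, an activator of p16Ink4a (-0.23). The remaining INK4 genes, *Cdkn2c* and *Cdkn2d*, both fell with Ad-OSCAR, and *Cdkn2d* went from 20.8 ± 2.56 to 11.5 ± 0.305 CPM. *Cdkn2c* had a log2 fold change of -0.24 with 5-ASA (adjusted p = 0.0146, same test), which was lost on the TPM scale and without Ad-OSCAR culture 1 (0.0813) or treated culture 2 (0.0798).

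The 3 GADD45 genes, which encode small stress proteins that bind p21, PCNA and the kinase MAP3K4, moved apart. *Gadd45a* (ENSMUSG00000036390.8, chromosome 6, 67035096 to 67037457), the p53 target of the family, was at 18.2, 17.4 and 17 CPM with Ad-Control, at 30.1, 31.2 and 24.6 CPM with Ad-OSCAR and at 50.0, 54.0 and 45.2 CPM with 5-ASA. No group overlaps another, and the treated cultures are the highest. It rose 1.63-fold with Ad-OSCAR (log2 fold change 0.71, standard error 0.09; edgeR, Benjamini-Hochberg adjusted p = 1.14e-06) and a further 1.74-fold after 5-ASA (0.80, standard error 0.08; same test, adjusted p = 9.35e-07). *Gadd45a* thus had a p53 half-site at its start, as *Cdkn1a* does, and the opposite sign of change with 5-ASA. An antisense gene over *Gadd45a*, E230016M11Rik, had 4 to 13 counts per culture against 322 or more for *Gadd45a*.

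*Gadd45b* (ENSMUSG00000015312.9, chromosome 10, 80930073 to 80932204), the member induced by TGF-β and NF-κB, was at 28.2, 27.5 and 27.4 CPM with Ad-Control. It stood at 36.4, 34.0 and 33.5 CPM with Ad-OSCAR and at 37.7, 35.6 and 36.2 CPM with 5-ASA. The Ad-Control cultures are the lowest, and the other groups overlap. The log2 fold change was 0.32 with Ad-OSCAR (standard error 0.05; edgeR, Benjamini-Hochberg adjusted p = 3.49e-05) and 0.07 after 5-ASA (standard error 0.05; same test, adjusted p = 0.358).

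*Gadd45g* (ENSMUSG00000021453.2, chromosome 13, 51846678 to 51848468), the member linked to differentiation, was at 44.8, 48.2 and 47.8 CPM with Ad-Control, at 10.0, 9.10 and 7.67 CPM with Ad-OSCAR and at 11.5, 9.41 and 10.2 CPM with 5-ASA. Ad-Control stands apart, and the Ad-OSCAR groups overlap. The level with Ad-OSCAR was 0.191 of that with Ad-Control (log2 fold change -2.39, standard error 0.09; edgeR, Benjamini-Hochberg adjusted p = 2.65e-14), the largest change among the 10 genes. With 5-ASA the log2 fold change was 0.21 (standard error 0.10; adjusted p = 0.151, same test). Of 6 kinases that GADD45 proteins act through, 3 (50.0%, against 65.0% of all genes) changed with Ad-OSCAR: *Map3k4*, their direct partner, fell (log2 fold change -0.48), *Map2k3* fell (-0.40) and *Map2k7* rose (0.15, lost without Ad-Control culture 1 or Ad-OSCAR culture 1, with adjusted p of 0.0624 and 0.0725 from edgeR). With 5-ASA 1 of the 6 changed (16.7%, against 17.8% of all genes). It was *Mapk8* (JNK1), which rose by 0.27 on the log2 scale and did not pass on the TPM scale (adjusted p = 0.0827, limma-trend).

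Genes of the cell cycle that these inhibitors act on were mostly lower with Ad-OSCAR. All 20 proliferation markers fell (median log2 fold change -2.97), where 32.2% of all genes did. *Mki67* went from 131 ± 6.21 to 5.25 ± 0.274 CPM and *Ccna2*, cyclin A2, from 59.6 ± 3.21 to 3.46 ± 0.800 CPM. With 5-ASA 10 of the 20 changed, all down (median -0.32; edgeR, Benjamini-Hochberg), where 7.38% of all genes fell. Among them was *Ccnb2*, from 1.92 ± 0.295 to 1.03 ± 0.155 CPM. *Birc5*, survivin, had a log2 fold change of -0.62 (adjusted p = 0.0217, edgeR), which was lost when only the groups compared were fitted (0.0564) and without Ad-OSCAR culture 1 (0.0653) or treated culture 3 (0.12). Of 11 G1 cyclins, CDKs and pocket proteins, 10 changed with Ad-OSCAR, 2 up and 8 down. Of all genes 65.0% changed, 32.7% up and 32.2% down. *Ccne2*, cyclin E2, fell from 17.1 ± 0.496 to 3.27 ± 0.487 CPM and *Ccnd1*, cyclin D1, from 94.9 ± 2.51 to 31.9 ± 2.49 CPM, while *Rb1*, the pocket protein that the inhibitors keep active, rose from 22.1 ± 1.24 to 38.5 ± 3.13 CPM. With 5-ASA 6 of the 11 changed (54.5%, against 17.8% of all genes), 3 up and 3 down. *Rbl1*, the pocket protein p107, had a log2 fold change of -0.44. *Ccnd1* rose by 0.28, a call that was lost on the TPM scale (adjusted p = 0.0959, limma-trend). On the TPM scale 2 of the 11 passed.

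All 4 nuclear and lysosomal markers used for senescence changed with Ad-OSCAR (65.0% of all genes did), 3 down and 1 up. *Lmnb1*, lamin B1, which is lost in senescent cells, went from 30.0 ± 0.749 to 4.71 ± 0.671 CPM with Ad-OSCAR. *Hmgb2* went from 48.4 ± 1.1 to 20.9 ± 1.17 CPM and *Hmgb1* from 208 ± 5.89 to 132 ± 3.5 CPM. The marker that rose was *Glb1*, the lysosomal β-galactosidase, from 46.6 ± 1.34 to 59.9 ± 0.819 CPM. *Lmnb1* and *Hmgb2* also follow proliferation, and *Glb1* overlaps *Tmppe* on the same strand. With 5-ASA 1 of the 4 markers passed (17.8% of all genes did). It was *Hmgb1*, with a log2 fold change of 0.22 that was not called on the TPM scale (adjusted p = 0.164, limma-trend). All 12 factors that senescent cells secrete changed with Ad-OSCAR, 8 up and 4 down, with a median log2 fold change of 1.14 (edgeR, Benjamini-Hochberg). Among all genes, 32.7% rose and 32.2% fell. *Il6* rose from 52.9 ± 6.24 to 1061 ± 52.9 CPM, and *Il1a* counts were 1 to 3 with Ad-Control and 135 to 159 with Ad-OSCAR. Both are also general inflammatory cytokines. *Igfbp5*, which encodes an IGF-binding protein, fell (log2 fold change -1.71). With 5-ASA 7 of the 12 changed, 5 up and 2 down (median 0.19), where 10.4% of all genes rose and 7.38% fell. *Igfbp5* rose by 0.33 on the log2 scale. *Il1a* (-0.42, adjusted p = 0.0417) and *Il6* (-0.21, adjusted p = 0.0349, both edgeR) fell. Leaving out any one of the 3 Ad-OSCAR cultures or treated culture 1 or 3 ended the call of *Il1a* (adjusted p up to 0.195), and leaving out Ad-OSCAR culture 1 or 3 or treated culture 1 or 3 ended that of *Il6* (up to 0.149). Both calls were also lost with DESeq2 (adjusted p of 0.165 and 0.152).

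**Figure D5:**
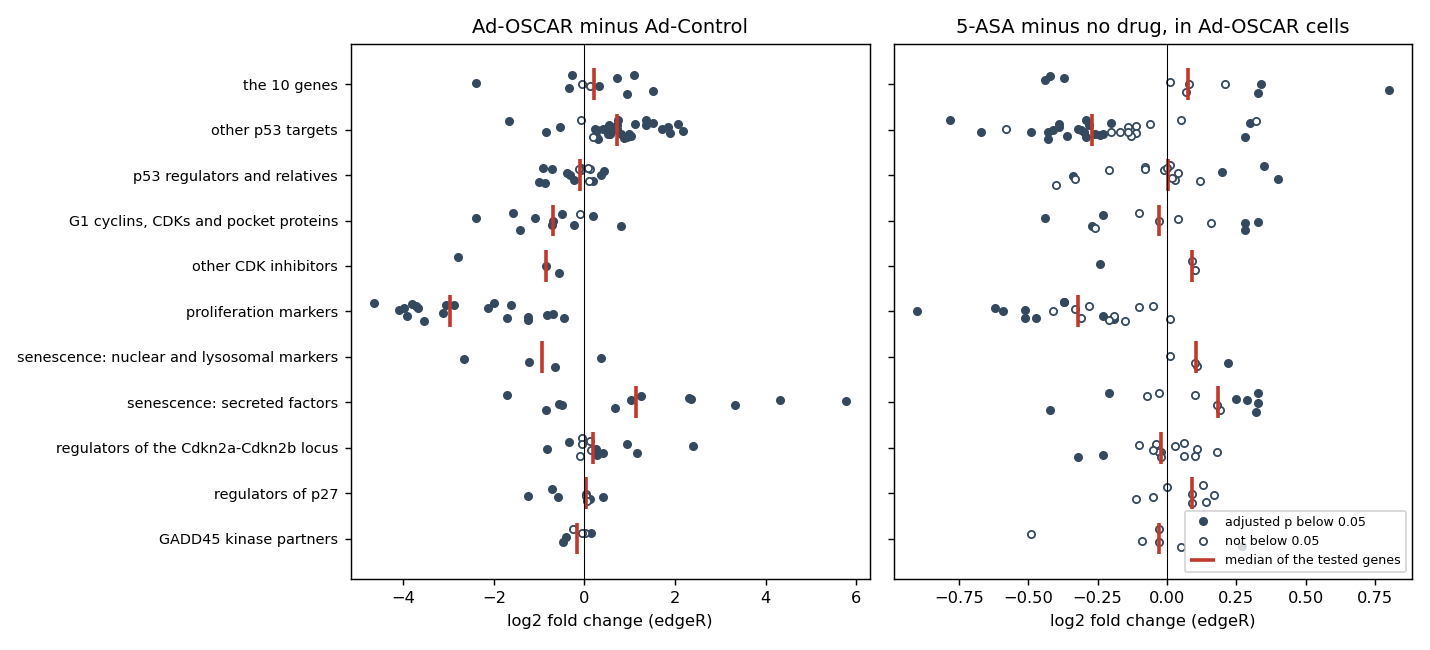
Log2 fold change (x axis, separate scales) of each tested gene of the 10 and of the related lists with Ad-OSCAR (left) and with 5-ASA in Ad-OSCAR cells (right), with filled points for a Benjamini-Hochberg adjusted p below 0.05 and a red bar for the list's median. On the left the medians of the other p53 targets (0.72) and the proliferation markers (-2.97) lie on opposite sides of 0, and on the right both lie below 0, at -0.27 and -0.32.

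Compared with Ad-Control, the 5-ASA-treated Ad-OSCAR cultures differed in 8 of the 10 genes, 6 up and 2 down (edgeR, Benjamini-Hochberg adjusted p below 0.05), where 63.2% of all genes did. *Cdkn1a* was 2.12-fold, *Mdm2* 1.60-fold and *Ccng1* 1.48-fold above its Ad-Control level after treatment. *Gadd45a* was 2.84-fold above, *Cdkn2b* 1.38-fold and *Gadd45b* 1.32-fold. *Gadd45g* stood at 0.221 and *Cdkn1b* at 0.870 of the Ad-Control level. *Trp53* and *Cdkn2a* did not pass, with log2 fold changes of -0.03 and -0.01 (adjusted p of 0.623 and 0.948, edgeR). Of the 32 other p53 targets, 24 were above and 5 below Ad-Control, where 31.4% of all genes were above and 31.8% below.

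The split of calls with 5-ASA depended on the scale. With TMM-scaled counts, 58.5% of the 2732 genes called rose, and with limma-trend on log2(TPM + 1), 27.4% of 2049 genes did, while the median over all genes moved from 0.00 to -0.08. On that scale 5 of the 10 genes were called with 5-ASA, *Cdkn2a* being the one lost, and *Mdm2*, *Cdkn1a*, *Ccng1*, *Cdkn2b* and *Gadd45a* kept their directions.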

How the data were processed

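RNA of 9 cultures was sequenced by the authors from stranded mRNA libraries as paired reads of 100 bases. Per the submitters' processing notes, STAR 2.7.1a and RSEM 1.3.1 were used with GRCm38. The authors deposited RSEM's estimated counts, which need not be whole and are not scaled to a common total, TPM, and the mean transcript length of each gene. The paper's reporting summary names a Gencode annotation, with another version of RSEM, for the TPM values. Whether the deposited values rest on these is not stated there. The strand setting is not given in the sources used here. Identifiers were matched without version to GENCODE M21 (55144 of 55471).

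Estimated counts were rounded (8.97% to 10.1% of values per culture were not whole) and tested in 1 fit of all 9 cultures with edgeR 4.0.16 in R 4.3.3 (filterByExpr by group, TMM, quasi-likelihood F test, Benjamini-Hochberg adjustment over 15362 genes, 6 residual degrees of freedom, biological coefficient of variation 5.11%). Standard errors were obtained by dividing each log2 fold change by the square root of its F value. No pair of cultures in a group held the same values (chi-square per degree of freedom 4.25 to 8.10). DESeq2 1.42.0, limma 3.58.1 on log2(TPM + 1) or log2(TPM + 0.1), RLE factors, other filters, the replicate number as a block and each culture left out were tried as alternatives. Python 3.11.15, pandas 2.3.3, scipy 1.17.1 and matplotlib 3.10.9 were used for tables and figures.

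The share of each *Cdkn2a* transcript was solved from the deposited mean length and the lengths of both annotated transcripts. Start regions are from RefSeq. Genes named beside the 10 are, for each list, up to 2 in each direction (3 for p53 targets) with the largest change among those with an adjusted p below 0.05, a mean level of 1 CPM or more and groups that do not overlap. The 10 genes and all lists were chosen with earlier results of these data known. A gene that this rule names is not reported here.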

Additional observations from a re-analysis of the deposited data

How the results depend on the processing

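Over 17 alternatives to each of 30 values of the 10 genes, 485 of 510 kept direction and call, 9 lost the call, 5 gained it and 11 changed sign. The values that changed sign were all small: *Trp53* with Ad-OSCAR (-0.11 to 0.00 over the cultures left out, with 0.00 without Ad-OSCAR culture 1), with 5-ASA (-0.09 on both TPM scales and -0.04 without Ad-OSCAR culture 1) and against Ad-Control after treatment (0.00 without Ad-Control culture 1), *Cdkn1b* with 5-ASA (-0.12 on both TPM scales), and *Cdkn2a* against Ad-Control after treatment (0.00 with at least 10 counts in every culture, and -0.11 to 0.08 over the cultures left out, with 0.08, 0.04 and 0.01 without Ad-Control culture 3 or treated culture 2 or 3). The calls lost or gained were those of *Cdkn2a* and *Cdkn2b* given above; the cause was not tested. Of 1049 values of other named genes, 994 kept both and 55 lost the call.

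The 5-ASA comparison called 1882 to 2751 genes when each culture was left out, against 2732. On the TPM scales it called 2 of the 11 G1 genes in place of 6, 0 in place of 1 of the other CDK inhibitors, of the nuclear and lysosomal senescence markers and of the GADD45 kinases, and, with log2(TPM + 0.1), 4 in place of 7 secreted factors and 1 in place of 2 regulators of the *Cdkn2a* locus. Against Ad-Control after treatment, 5 in place of 9 p53 regulators were called there. Without treated culture 2 or 3, 1 regulator of p27 was called in place of 0.

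The replicate numbers were not used to pair cultures: cultures with the same number deviated from their groups with correlations of -0.0724 to 0.0402 across genes. With the replicate number as a block, 8, 5 and 8 of the 10 genes were called with Ad-OSCAR, with 5-ASA and against Ad-Control after treatment, and 9882, 2500 and 9555 of all genes, against 9983, 2732 and 9705. With 3 cultures a group, the exact permutation test of the *Cdkn2a* transcript shares cannot reach a p below 0.1.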
